A study of Mus musculus with 7 samples.

Results

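The D segments of the antibody heavy chain were described in B cells from lymph nodes of wild-type (WT) and 5xFAD mice. Cells with exactly 1 productive heavy chain contig were grouped by the first D gene named in the deposited call, with the allele removed, and D genes were grouped into families by the text before the hyphen. The 6 libraries of known node and genotype held 17381 such cells among 20052 barcodes. Of these cells, 15690 carried a D call and 1691 carried none. The calls used 24 first names in 6 families, and 13 names reached 1% of cells in at least 1 library. The other 11 names together covered 451 cells, or 2.59%.

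A heavy chain variable region is assembled in developing B cells by joining 1 D segment to a J segment and then a V segment to the joined pair. Nucleases trim the segment ends, and terminal deoxynucleotidyl transferase adds untemplated N bases at both junctions. The D segment and its flanking N bases form the centre of the third complementarity determining region (CDR3), often the most variable part of the antigen binding site. A D segment can be read in any of its reading frames, and mouse antibodies are known to favour a frame rich in tyrosine.

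The nodes were deep cervical (dCLN), superficial cervical (sCLN) and inguinal (iLN) lymph nodes. All animals were perfused females aged 10 to 11 months, and cells entered only from suspensions with more than 87% viable cells. The 5xFAD strain is used to model Alzheimer's disease, with transgene expression driven by the neuronal Thy1 promoter. The 6 groups were WT dCLN, 5xFAD dCLN, WT sCLN, 5xFAD sCLN, WT iLN and 5xFAD iLN, each represented by 1 library made from combined, hashtag-labelled suspensions. A further library of mixed origin, holding cells of every node and either genotype, entered no comparison. The labels do not tie cells to animals, so libraries may share animals and p-values over libraries measure only the spread between them.

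The libraries held 2107 to 3904 single-heavy cells, and their heavy chain UMIs totalled 26533 to 96163, with a median of 9 to 13 per cell. In all, 174 barcode sequences occurred in more than 1 library. Intervals of shares are exact Clopper-Pearson 95% intervals. They cover counting error only, since cells of 1 clone are not independent. Where a count was 0, the limit given is instead 3 counts divided by the number of cells. Contrasts inside libraries were tested by an exact two-sided sign-flip test over the 6 differences, whose smallest possible p is 0.03125, with Benjamini-Hochberg adjustment over 10 contrasts.

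Germline segments are shown first because their ends meet in the joints described below. They were read from GENCODE M21 transcripts on GRCm38. All lie on the minus strand of chromosome 12, between the V genes and the constant region genes. Capitals mark the 3′ bases of a D segment that are identical to the first bases of at least 1 J segment, or the first bases of a J segment that end at least 1 of the D segments named here.

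IGHD1-1: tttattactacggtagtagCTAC
IGHD2-3: tctatgatggttACTAC
IGHD2-4: tctactatgattacgAC
IGHD2-5: cctactatagtaACTAC
IGHD2-7: tctactatggttacgAC
IGHD2-8: tctactatggtaACTAC
IGHD3-2: agacagctcaggCTAC
IGHD4-1: ctaactgggAC
IGHJ1: CTACtggtacttcgatgtctgggg
IGHJ2: ACTACtttgactactggggccaag
IGHJ3: Cctggtttgcttactggggccaag
IGHJ4: attactatgctatggactactggg

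IGHD1-1 (chr12:113482170-113482192) is the longest of the D segments shown, with 23 bases. IGHD4-1 (chr12:113430528-113430538) is the shortest of them, with 11 bases, and lies nearest to the J cluster, whose outer ends are chr12:113428514-113429833. IGHD2-3 (chr12:113475400-113475416), IGHD2-4 (chr12:113470694-113470710) and IGHD2-5 (chr12:113466027-113466043) have 17 bases each. IGHD3-2 (chr12:113448214-113448229) has 16 bases.

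The deposited names did not all follow this annotation. It lists 20 Ighd genes, and 12 of the 24 first names, with 2705 cells, were not among them. Cells first named IGHD2-1 that also had a Cell Ranger D call were named IGHD2-8 there in 220 of 224 cases. Cells first named IGHD2-2 were named IGHD2-7 in all 120 cases with such a call. Thus IGHD2-1 and IGHD2-2 below stand for segments whose bases lay in the annotated IGHD2-8 (chr12:113450851-113450867) and IGHD2-7 (chr12:113456720-113456736), in 98.4% and 98.0% of their cells. All cells first named IGHD2-4 also named IGHD2-9. Cells first named IGHD2-5 had bases that lay in the annotated IGHD2-5 in 850 of 861 cells, and equally often in IGHD2-6. IGHD2-5 below therefore stands for either of these annotated genes.

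By first name, IGHD1 and IGHD2 were the largest families in every library. The IGHD1 share was lowest in 5xFAD dCLN at 37.0% and highest in WT sCLN at 40.1%. The IGHD2 share ran from 32.9% in WT sCLN to 35.4% in 5xFAD iLN. By first name IGHD1 exceeded IGHD2 in each library, but the order depended on how D was assigned. With the bases matched again to the annotated D genes, IGHD1 took 32.9% to 36.2% and IGHD2 32.6% to 34.9%, and IGHD2 was the higher in WT dCLN, 5xFAD dCLN and 5xFAD sCLN. With calls of a single family IGHD2 was the higher in 5xFAD dCLN, at 36.4% against 36.2%. With calls of a single gene IGHD2 took 11.2% to 12.9%, below IGHD4 at 13.7% to 16.1%, and IGHD1 took 48.9% to 53.4%. That setting leaves out every cell first named IGHD2-1, IGHD2-2, IGHD2-4, IGHD2-5 or IGHD2-10, since none of these calls named 1 gene alone. IGHD4, a family of 1 gene, took 9.02% to 10.5% of cells, and IGHD3 took 5.86% to 7.21%. IGHD5 and IGHD6 stayed below 1% in all 6 libraries. Cells without a D call made up 9.45% to 10.4%.

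Most of the IGHD1 family was a single gene. IGHD1-1 accounted for 36.8% of all cells, with a lowest share of 35.5%, a median of 36.5% and a highest share of 38.4% over libraries. The next genes were IGHD4-1 at 9.88%, IGHD2-4 at 9.76%, IGHD2-3 at 7.61%, IGHD2-1 at 5.36% and IGHD2-5 at 4.95%. IGHD2-2 followed at 3.49% and IGHD3-2 at 3.37%. IGHD2 was therefore spread over several genes of like length, whereas IGHD1 and IGHD4 each rested on 1 gene.

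**Figure D1:**
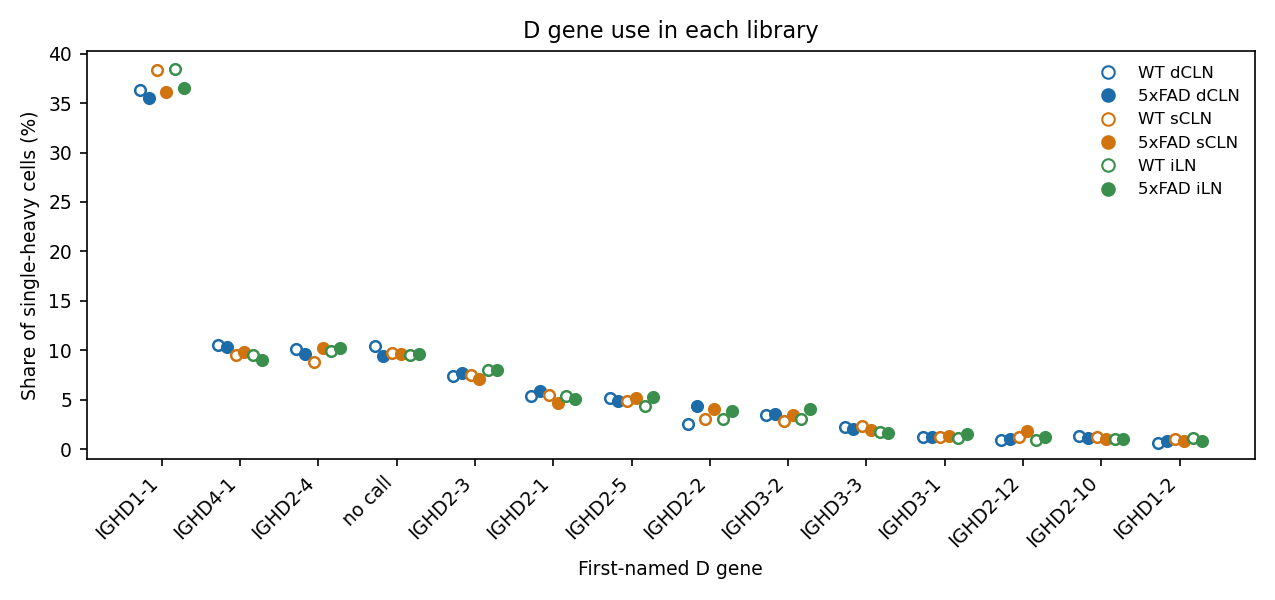
Share of single-heavy cells (y axis, %) whose first-named D gene is on the x axis, for the 13 names at 1% or more in a library and for cells without a call; each point is 1 library, open for WT and filled for 5xFAD, coloured by node. IGHD1-1 lies at 35.5% to 38.4% in all libraries, and the open points of IGHD2-2, IGHD3-1 and IGHD3-2 lie below the filled ones of the same gene. Such gaps were not counted over all V, D and J genes.

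How firmly a segment was identified differed between families. Of all D calls, 38.2% named several genes, 5.04% named genes of more than 1 family, and 24.8% rested on fewer than 8 matched bases. Among IGHD1-1 cells 13.0% had so short a match, against 49.3% of IGHD4-1 cells and 95.8% of IGHD3-3 cells. IGHD3-3 calls often crossed families, since 212 of its 354 cells also named IGHD4-1. Cell Ranger gave a D call in 22.2% of cells, and its family was the same in 98.8% of the 3797 cells with both calls.

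D families were distributed unevenly over the J genes. IGHD1 made up 50.2% to 54.8% of IGHJ1 cells (median 52.3%) and 31.7% to 36.4% of IGHJ4 cells (median 35.1%). The groups did not overlap, and the difference averaged 17.7 percentage points (SD 2.22, n = 6 libraries), higher in 6 of 6 libraries (exact sign-flip test, adjusted p = 0.0446). IGHD2 showed the reverse order as a description, with 27.1% of IGHJ1 cells, 29.4% of IGHJ2 cells, 38.5% of IGHJ4 cells and 42.5% of IGHJ3 cells over the pooled libraries.

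IGHD4, the family nearest to the J cluster, was highest in IGHJ2 cells at 12.3% to 14.9%. It held 7.69% to 11.0% of IGHJ1 cells (median 8.70%) and 4.02% to 7.68% of IGHJ4 cells (median 6.21%). The difference between IGHJ1 and IGHJ4 cells averaged 2.92 percentage points (SD 1.49, n = 6 libraries) and had the same sign in 6 of 6 libraries (exact sign-flip test, adjusted p = 0.0446). Its direction held with calls of at least 8 matched bases, at 1.83 points in 5 of 6 libraries, where the exact test gave an adjusted p = 0.104. In the Cell Ranger calls, IGHJ1 took 28.3% of IGHD4-1 cells, compared with 17.3% of IGHD4-1 cells in the deposited calls.

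**Figure D2:**
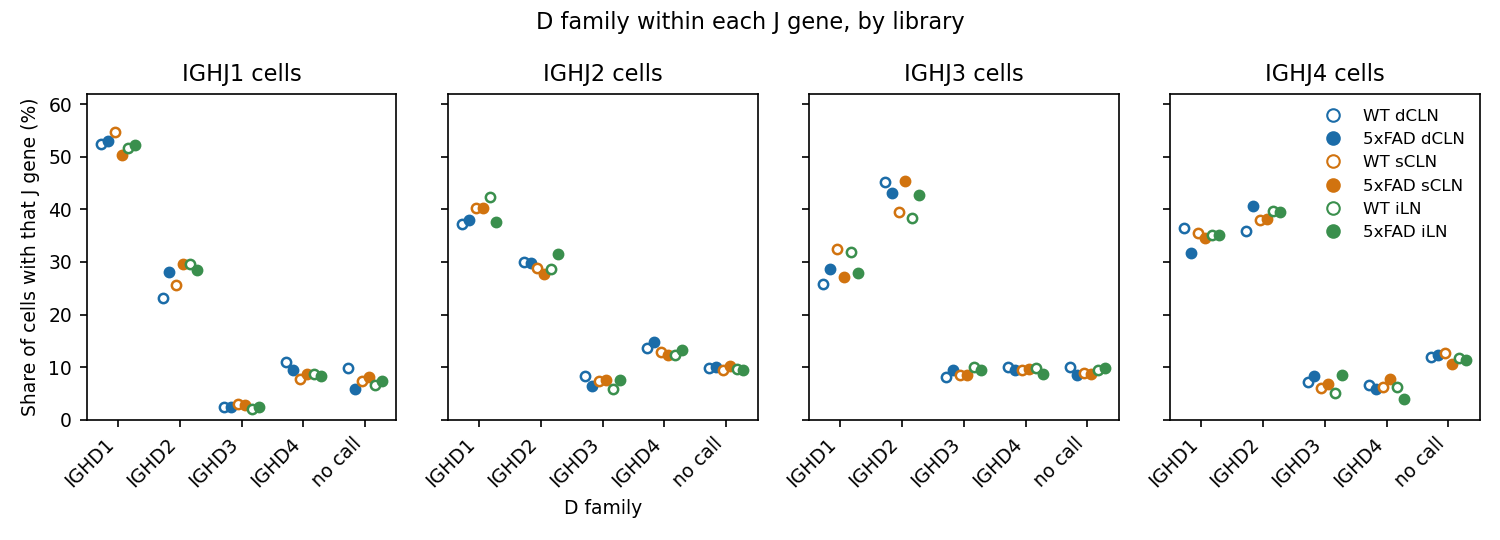
Share of cells (y axis, %) in each D family (x axis) among cells with IGHJ1, IGHJ2, IGHJ3 or IGHJ4 (panels); each point is 1 library, open for WT and filled for 5xFAD, coloured by node. IGHD1 lies at 50.2% to 54.8% among IGHJ1 cells and at 31.7% to 36.4% among IGHJ4 cells, and IGHD3 is at 2.06% to 2.92% among IGHJ1 cells.

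The 7 contrasts that passed in all were tied at the smallest p, so each adjusted value hangs on the others. When the contrast of N additions lost its p, as with each clone counted once, the adjusted p of the remaining 6 became 0.0521, with the same sign in 6 of 6 libraries (exact sign-flip test).

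The gene pairs with the highest and lowest ratio of observed to expected frequency both involved IGHD3-2. The expected frequency was the product of the D and J shares among cells with a D call in the same library. IGHD3-2 with IGHJ3 had a median ratio of 1.75 (1.53 to 1.93 over libraries). IGHD3-2 with IGHJ1 had a median ratio of 0.13, with a highest value of 0.20. Only 12 of 586 IGHD3-2 cells used IGHJ1 (2.05%, interval 1.06% to 3.55%), whereas IGHJ1 was used by 18.8% of all cells. The pair was also rare in the Cell Ranger calls, where 5 of 337 IGHD3-2 cells had IGHJ1 (1.48%). IGHD3-2 with IGHJ1 was 5 of 94 cells in the library of mixed origin (5.32%). There IGHD3-2 with IGHJ3 was 18 of 94 cells (19.1%, interval 11.8% to 28.6%), below the 38.9% of the 6 libraries (interval 34.9% to 43.0%).

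The shared segment ends were found in the joints. A D to J joint without N bases was required here to match the J gene exactly over the first 12 J bases. This mattered, because 2831 cells had no N bases between D and J as deposited and 488 of them (17.2%) held a mismatch to the J gene there. With the exact requirement 2343 joints remained, or 14.9% of cells with a D call. IGHD1-1 ends in the 4 bases that begin IGHJ1, and its commonest joint with IGHJ1 used that shared stretch once.

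That joint was found in 178 of 1676 IGHD1-1 cells with IGHJ1 (10.6%, interval 9.19% to 12.2%), in 169 distinct junctions and with 51 V genes. The deposited alignment had assigned 307 cells to the same position. The commonest joint of IGHD1-1 was less frequent with the other J genes, at 3.02% with IGHJ2, 2.73% with IGHJ3 and 2.99% with IGHJ4. Its joint with IGHJ2 lay on the same 4 shared bases. IGHD2-5 showed that stretch with IGHJ1 in 17 of 138 cells (12.3%, interval 7.34% to 19.0%). With IGHJ2 it showed a stretch of 5 bases in 17 of 212 cells (8.02%, interval 4.74% to 12.5%). The commonest joint of IGHD2-3 with IGHJ2 also lay on 5 shared bases, at 4.68%. On 2 shared bases, the commonest joints with IGHJ1 reached 12.5% for IGHD2-4 and 9.06% for IGHD4-1. Whether the length of the shared stretch or the J gene bears on these shares was not tested. The following junctions, from the conserved cysteine to the conserved tryptophan, are examples of such joints, with the bases assigned to D in capitals.

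IGHD1-1 with IGHJ1: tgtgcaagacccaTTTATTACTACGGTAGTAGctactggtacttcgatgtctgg
IGHD2-5 with IGHJ2: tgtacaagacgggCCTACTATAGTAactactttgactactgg
IGHD2-5 with IGHJ1: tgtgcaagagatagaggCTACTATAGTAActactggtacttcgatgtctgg

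In each example the shared bases could have come from D or from J and are printed in lower case after the D match. Over all exact joints of IGHD1-1 without N bases, 58.9% lay on at least 1 shared base and 23.6% on at least 4. For IGHD2-5 these shares were 80.4% and 35.7%. For IGHD4-1 the share on at least 1 shared base was 38.4%. Its end shares at most 2 bases with the start of a J gene. The end of IGHD2-4 also shares at most 2, and there the share was 68.2%. IGHD3-1 and IGHD3-2, whose ends share up to 4, had 39.0% and 54.0%. IGHD2-3, whose end shares up to 5, had 62.7%. These shares thus did not follow the length of the shared end, which was not tested.

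Reading frames differed sharply between D genes. Frames are named by the germline D base at which a codon starts, so frame 3 begins codons at the third base. In that frame IGHD1-1 encodes 4 tyrosines, and IGHD2-3, IGHD2-4 and IGHD2-5 encode 3 each, while their frame 2 holds 1 or 2 stop codons. The tables hold productive contigs only, so frame 2 could appear only where trimming had removed those codons.

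Frame 3 was used by 71.1% to 73.6% of IGHD1-1 cells over libraries. Within IGHD2 it was used by 84.0% of IGHD2-3 cells, 88.8% of IGHD2-4 cells and 843 of 861 IGHD2-5 cells (97.9%). The lowest IGHD2 gene was IGHD2-2 at 61.4% (interval 57.4% to 65.3%), which overlapped IGHD2-10 at 63.6% (interval 56.4% to 70.3%) and IGHD2-12 at 69.0% (interval 62.1% to 75.3%). For the families, frame 3 held 70.3% to 72.4% of IGHD1 cells and 83.3% to 86.8% of IGHD2 cells, ranges that did not overlap. IGHD1 was 13.2 points below IGHD2 on average (SD 1.65, n = 6 libraries), lower in 6 of 6 libraries (exact sign-flip test, adjusted p = 0.0446).

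IGHD4-1 and IGHD3-2 showed no frame of that dominance. IGHD4-1 was in frame 3 in 40.7% of cells, in frame 1 in 35.2% and in frame 2 in 24.0%. IGHD3-2 was in frame 2 in 48.8% of cells, in frame 3 in 30.9% and in frame 1 in 20.3%. The shared joint of IGHD1-1 with IGHJ1 fixes the frame, and all of its cells were in frame 3. The other IGHD1-1 cells with IGHJ1 were in frame 3 in 70.1% of cases, so the frame was also the commonest without that joint.

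**Figure D3:**
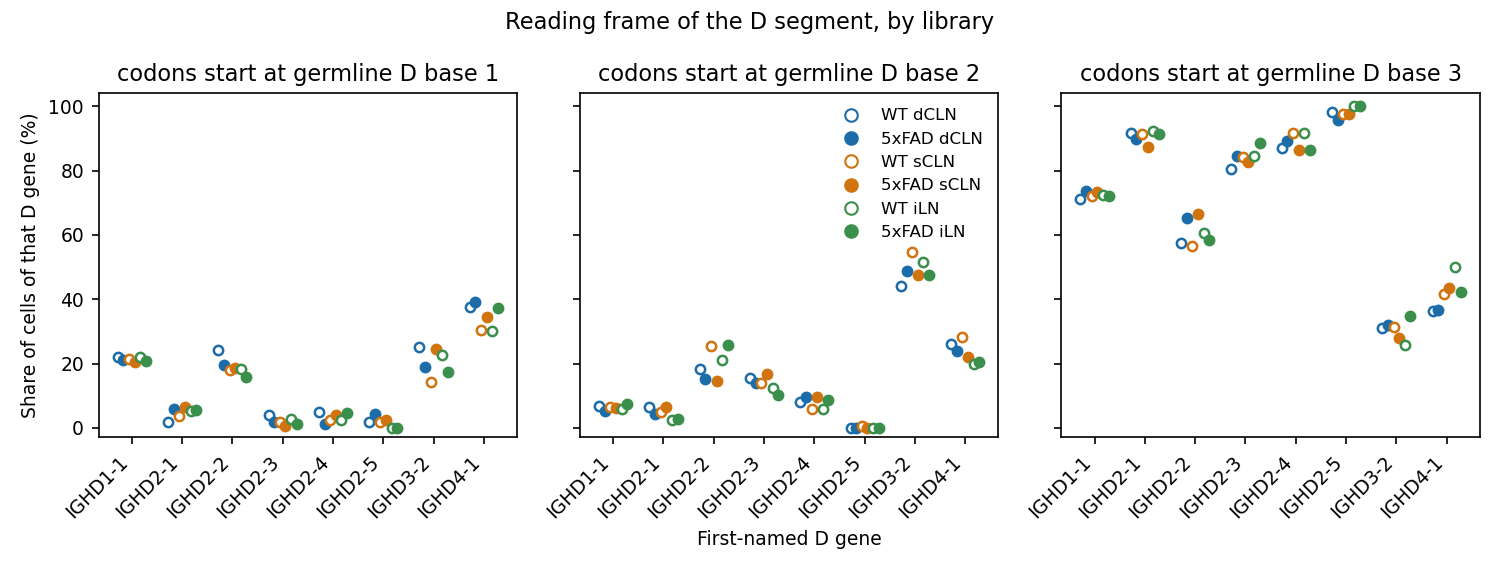
Share of the cells of each D gene (y axis, %) whose codons start at germline D base 1, 2 or 3 (panels), for 8 D genes (x axis); each point is 1 library, open for WT and filled for 5xFAD, coloured by node. IGHD2-5 lies near 100% in frame 3, whereas IGHD4-1 and IGHD3-2 are spread over the frames.

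Tyrosine content differed with the frame, as a description. IGHD1 cells in frame 3 had a mean of 25.1% tyrosine in the CDR3, against 11.6% in frame 1. IGHD2 cells had 25.0% in frame 3 and 14.5% in frame 1. IGHD4 cells ranged only from 12.6% to 12.9% between their frames. Over all frames the library means were 21.2% to 21.7% tyrosine in IGHD1 and 12.4% to 13.8% in IGHD4. The difference averaged 8.58 points (SD 0.367, n = 6 libraries) and was positive in 6 of 6 libraries (exact sign-flip test, adjusted p = 0.0446). The annotated IGHD4-1 holds 0 tyrosine codons in every frame, while IGHD1-1 holds 4 in frame 3. The germline segments thus enter this difference by construction, and the p-value does not measure anything beyond them.

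CDR3 length differed between the families. IGHD1 cells had a mean of 13.1 to 13.3 residues, IGHD2 cells 12.3 to 12.6, IGHD3 cells 10.9 to 11.5 and IGHD4 cells 10.7 to 11.0. IGHD1 exceeded IGHD2 by 0.753 residues on average (SD 0.109, n = 6 libraries), in 6 of 6 libraries (exact sign-flip test, adjusted p = 0.0446). IGHD4 was below IGHD2 by a mean difference of -1.61 residues (SD 0.164), also in 6 of 6 libraries (exact sign-flip test, adjusted p = 0.0446). The germline bases of D are part of the CDR3, so the segment's length enters these differences by construction. IGHD1-1 lost a mean of 4.97 bases at its 5′ end and 4.48 at its 3′ end, leaving a match of 13.6 of 23 bases. IGHD4-1 kept 7.65 of 11 bases.

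Family composition by CDR3 length class is described over the pooled libraries, with no test. Among cells with 8 or fewer residues, 48.8% had no D call, IGHD2 took 14.5% and IGHD1 took 13.1%. At 9 to 11 residues IGHD4 reached 16.1%, the highest of its 4 classes. At 15 or more residues IGHD1 took 63.4%, IGHD4 took 1.64%, and 1 of 3169 cells lacked a call. Whether a short junction limits the calling of D was not tested.

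**Figure D4:**
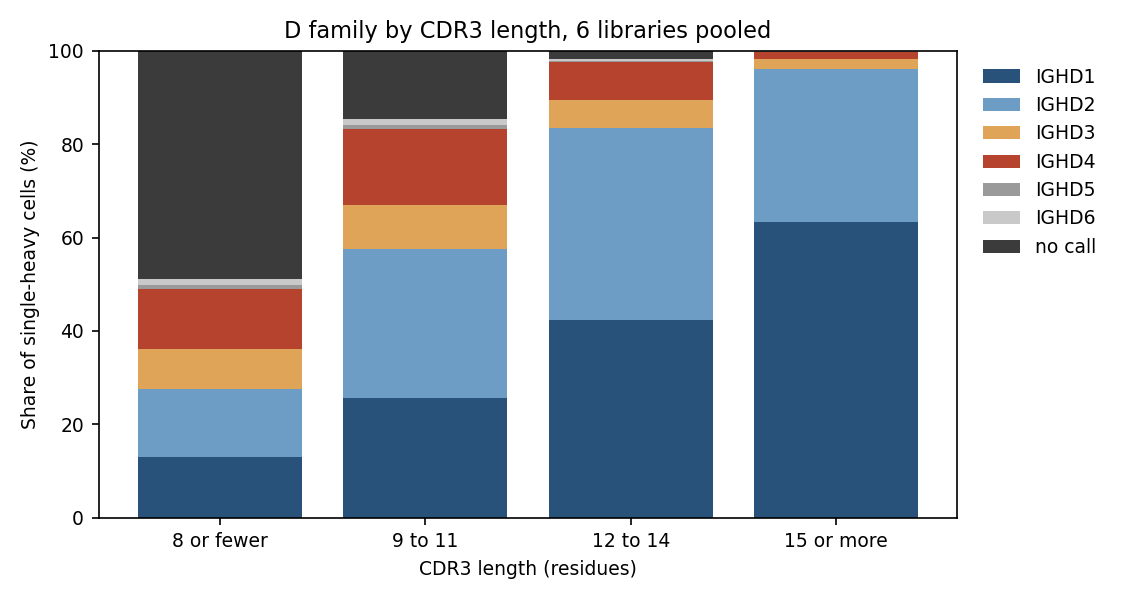
Stacked shares of D families (y axis, % of single-heavy cells, 6 libraries pooled) in 4 classes of CDR3 length (x axis, residues). The share without a call is 48.8% at 8 or fewer residues and 0.03% at 15 or more, and the IGHD1 share is 13.1% and 63.4% there.

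N additions were similar in total but not at each junction. Between V and D, library means were 2.92 to 3.64 bases in IGHD3 and 4.24 to 4.46 in IGHD1. Between D and J they were 3.31 to 3.49 in IGHD3 and 2.58 to 2.82 in IGHD1. The ranges of both families were apart at each junction, in opposite directions, which was not tested. The mean number of N bases in both junctions, over libraries, was 7.09 in IGHD1, 7.51 in IGHD2, 6.59 in IGHD3 and 6.86 in IGHD4. IGHD4 minus IGHD1 averaged -0.23 bases (SD 0.197, n = 6 libraries), below 0 in 6 of 6 libraries (exact sign-flip test, adjusted p = 0.0446). The direction depended on the setting. The mean difference was 0.17 bases when medians replaced means and 0.12 bases when calls needed at least 8 matched D bases. IGHD3 had a junction to V without N bases in 17.1% to 22.2% of cells, compared with 7.69% to 10.1% in IGHD1. These N counts were taken as deposited, without the exact requirement used for the D to J joints above. Matches of fewer than 8 bases averaged 53.65% of IGHD3 cells over libraries and 14.95% of IGHD1 cells. Whether short matches contribute to the junction differences between IGHD3 and IGHD1 was not tested.

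Use of D segments with V families was more even. IGHD1 took 36.6% to 41.2% of cells with IGHV1, the largest V family, and 34.9% to 38.5% of cells with the D-proximal families IGHV2 and IGHV5. The difference averaged 1.41 points (SD 2.14, n = 6 libraries) and was positive in 5 of 6 libraries, which did not pass (exact sign-flip test, adjusted p = 0.156). Without WT iLN, whose own difference was 5.45 points, the mean was 0.598, and with calls of a single gene it was -0.18 points. Among V families with at least 100 cells, the pooled IGHD1 share ran from 34.4% in IGHV2 to 42.0% in IGHV14. It was 39.0% in IGHV5 and 38.1% in IGHV1, so IGHV2 and IGHV5 lay on either side of IGHV1. IGHD2 was 41.0% in IGHV2 (interval 38.3% to 43.8%) and 33.3% in IGHV1 (interval 32.4% to 34.3%). IGHD4 was 14.7% in IGHV6 (interval 11.4% to 18.6%) and 9.83% in IGHV1 (interval 9.25% to 10.4%). Its share in IGHV6 ran from 7.61% in 5xFAD dCLN to 20.5% in WT iLN. In 5xFAD dCLN its share in IGHV1 was higher, at 10.9%, while in the other libraries it was lower than in IGHV6. These V family values were not tested.

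Isotype groups were compared within libraries, where switched cells numbered only 25 to 159. In the pooled libraries IGHD1 took 37.7% of IgM cells, 40.3% of IgD cells, 35.4% of IgG cells and 32.8% of 58 IgA cells. These shares include cells without a D call. Over libraries they ran from 26.1% to 43.5% in IgG and from 0% to 50% in IgA. Among cells with a D call, IGHD1 was 28.3% of switched cells in WT dCLN and 45.7% in WT sCLN, the lowest and highest of the libraries. Switched minus unswitched cells averaged -3.28 points (SD 5.60, n = 6 libraries), with 4 of 6 libraries below 0 (exact sign-flip test, adjusted p = 0.208). Without WT dCLN the mean was -1.12 points.

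For the share without a D call, switched minus unswitched cells averaged -0.51 points (SD 5.08, n = 6 libraries), which did not pass, with 4 of 6 libraries above 0 (exact sign-flip test, adjusted p = 0.875). The 5xFAD iLN library, with 0 of 25 switched cells lacking a call, which allows a share of up to 12%, was among the 2 below 0. Without it the mean was 1.34 points.

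Between genotypes, the exact intervals of every main D family overlapped in each node. Each group was a single library, so nothing was tested inside a node, and over the 3 nodes the exact sign-flip test cannot go below p = 0.25. A difference was called where the 2 exact intervals were apart. IGHD2 in 5xFAD minus WT was 1.83 points in dCLN, 1.88 in sCLN and 1.68 in iLN. All 3 were positive, but the interval of each included 0 and none was called. IGHD1 was -0.39 points in dCLN, -2.49 in sCLN and -2.41 in iLN, with none called. With calls of a single gene, IGHD1 in dCLN was 1.41 points and IGHD2 in sCLN was -0.47 points.

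Within IGHD2 the gene IGHD2-2 stood out in dCLN. It was named first in 170 of 3904 5xFAD cells (4.35%, interval 3.74% to 5.04%) and 87 of 3374 WT cells (2.58%, interval 2.07% to 3.17%), a difference of 1.78 points (interval 0.919 to 2.63). The 2 exact intervals were apart. In sCLN the shares were 4.07% in 5xFAD and 3.08% in WT, and in iLN 3.89% and 3.00%, with overlapping intervals in both nodes. The difference was 0.993 points in sCLN (interval 0.00249 to 2.03, just above 0) and 0.892 in iLN (interval -0.230 to 2.03). Neither was called. The 5xFAD libraries thus lay at 3.89% to 4.35% and the WT libraries at 2.58% to 3.08%, with no overlap. This was not particular to IGHD2-2. The genotypes were also apart for IGHD3-2 (3.48% to 4.08% against 2.88% to 3.44%) and IGHD3-1 (1.26% to 1.52% against 1.14% to 1.22%). So were they for the IGHD2 family, at 34.8% to 35.4% against 32.9% to 33.7%. How many of all V, D and J genes did so was not counted, so these gaps are not read as a trait of the genes named. The mean difference of IGHD2-2 over nodes was 1.22 points (SD 0.484, n = 3 nodes, exact sign-flip p = 0.25, the smallest it can give).

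The IGHD2-2 cells of dCLN were not a few clones, since the 170 cells held 166 distinct combinations of V gene and junction and the 87 cells held 81. Of all single-heavy dCLN cells, those with both IGHD2-2 and IGHV1 were 2.69% in 5xFAD and 1.45% in WT. Those with IGHD2-2 and any other V family were 1.66% (interval 1.29% to 2.12%) and 1.13% (interval 0.798% to 1.54%), with overlapping intervals. Cell Ranger's IGHD2-7 call gave 41 cells (1.05%, interval 0.755% to 1.42%) in 5xFAD and 16 cells (0.474%, interval 0.271% to 0.769%) in WT. Those intervals overlap slightly. The IGHD2-2 alternatives were added after its value had been seen.

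These counts were read against all heavy chain segments. Among V, D and J genes at 1% or more of cells in either library, 3.77% differed by the same rule in dCLN, 1.69% in sCLN and 0% in iLN. In dCLN, 1 of 11 D genes was called, and in sCLN and iLN 0 of 13. Between nodes, no D gene was called in any of the 6 comparisons. The background there was 0% for WT dCLN against iLN, 0% for WT sCLN against iLN, 1.79% for WT dCLN against sCLN, and 0% for each of the 3 comparisons within 5xFAD. The widest D gene difference between nodes was -2.04 points, for IGHD1-1 in WT dCLN minus iLN.

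**Figure D5:**
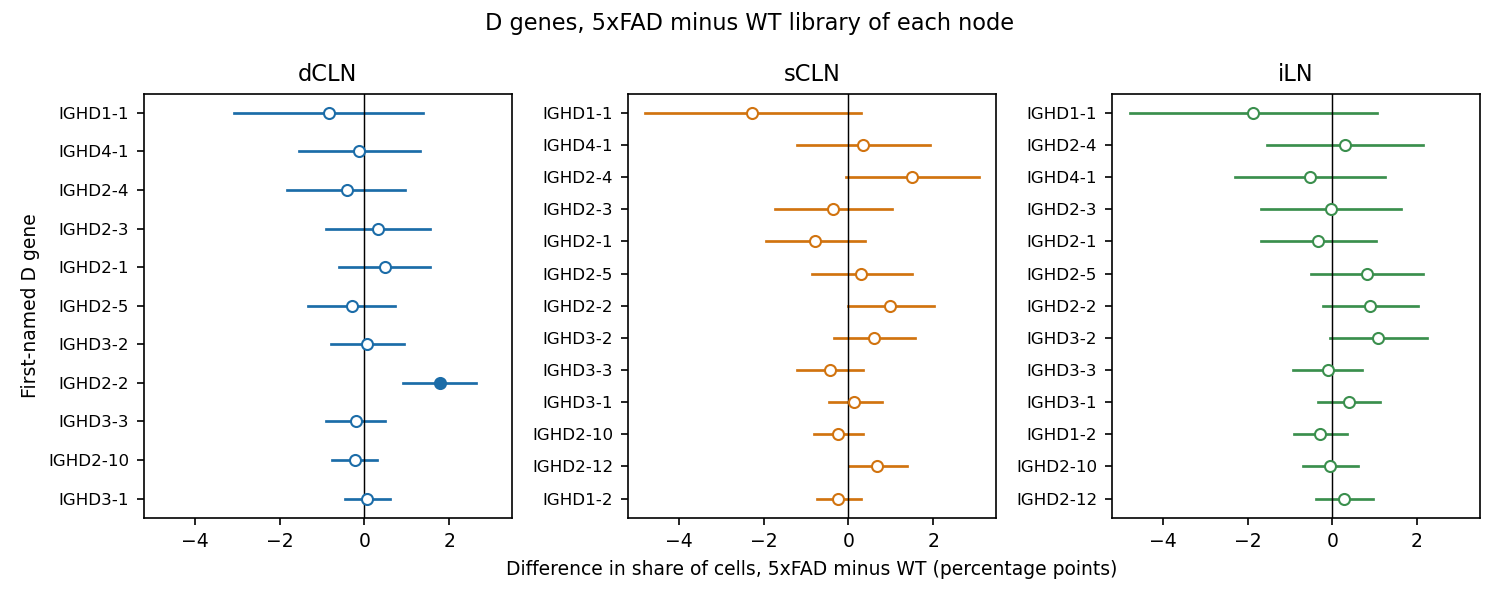
Difference in share of cells, 5xFAD minus WT (x axis, percentage points), for D genes at 1% or more in either library (y axis) in each node (panels); bars are intervals that combine both exact 95% intervals, and a filled point marks libraries whose intervals do not overlap. IGHD2-2 in dCLN, at 1.78 points, is the filled point.

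The largest groups of identical heavy chains are given for each main family. In IGHD1 the largest held 16 cells of 3 WT libraries (5 in dCLN, 9 in sCLN and 2 in iLN). It used IGHV1-26 and IGHJ4, with a D match of 5 bases. Those bases also end the annotated IGHD3-2 printed above, so the family of this group is not settled. In IGHD4 the largest held 7 cells of 3 libraries of both genotypes, with IGHV4-1, IGHJ1 and 8 bases assigned to D. The annotated IGHD4-1 printed above does not hold that stretch whole. The largest group of IGHD2 held 5 IgG2b cells, and that of IGHD3 held 4 IgG1 cells whose call also named IGHD4-1. The junctions of the first and second of these groups, are printed with the bases assigned to D in capitals.

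IGHD1 group: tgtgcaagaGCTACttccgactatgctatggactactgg
IGHD4 group: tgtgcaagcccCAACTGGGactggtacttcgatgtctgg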

How the data were processed

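B cell receptor contigs of single cells were analysed from 6 libraries, and the members and lists described here were chosen with earlier results of these data known. The authors deposited UMI and read counts for each contig. The authors also deposited V and D identity as fractions between 0 and 1. Alignment positions and N regions are given in bases, per the file headers. The submitters' processing notes list Cell Ranger 6.0.1, Seurat 4.1.0 and mm10, with no role for any of them. The germline set of the D calls is not given in the sources used here.

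Single-heavy cells were summarised with Python 3.11.15, pandas 2.3.3, numpy 2.4.6 and scipy 1.17.1, and figures were drawn with matplotlib 3.10.9. Barcodes with several heavy chains were left out, and no doublet caller was run. N regions may hold P nucleotides and unmatched D bases. The rule for names took all D families, each D gene reaching 1% in any library, V families of at least 100 cells, the J genes, the isotypes, the extreme D and J pairs and the largest identical group of each of the 4 main families. IGHD2-2 and the joints were singled out after their values were seen. Intervals and frames were tested on simulated data, and the sign-flip test only on fixed inputs of known p. Alternatives changed 1 choice at a time. The library of mixed origin entered no comparison.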

Additional observations from a re-analysis of the deposited data

Results flagged for a closer look

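The library of mixed origin, which holds cells of every node and either genotype, carried D names not seen elsewhere. Of its 2488 single-heavy cells, 5.87% were first named IGHD10 (146 cells), and 12.3% carried 1 of 14 first names that no cell of the 6 other libraries had. A count of 0 in the smallest of those libraries allows a share of up to 0.142%. Of the IGHD10 cells, 82.2% rested on fewer than 8 matched bases, and 53.4% also named IGHD4-1. In that library the IGHD1 share was 36.7%, the IGHD2 share 30.2% and the IGHD4 share 8.08%. With D matched again to the annotated genes, its IGHD4 share was 13.5%, against 10.3% to 11.9% in the 6 libraries. Its place thus turned from below the 6 libraries, at 9.02% to 10.5% by first name, to above them.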

How the results depend on the processing

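In the sentences below, values are mean differences in the units of the report, in the order at least 3 heavy chain UMIs, each clone once, calls of a single gene, at least 8 matched D bases, calls of a single family, and D matched again to the annotated genes. The last pair of settings was chosen after seeing the data. The IGHD4 share between IGHJ1 and IGHJ4 cells was 2.57, 2.93, 2.84, 1.83, 3.13 and 3.30. The IGHD1 share between them was 17.6, 17.7, 18.1, 17.9, 18.7 and 18.6. CDR3 length of IGHD1 minus IGHD2 was 0.747, 0.755, 1.15, 0.785, 0.893 and 1.00. CDR3 length of IGHD4 minus IGHD2 was -1.61, -1.60, -1.51, -1.59, -1.63 and -1.70. Tyrosine of IGHD1 minus IGHD4 was 8.48, 8.55, 9.005, 10.3, 8.81 and 8.84. The frame contrast was -13.6, -13.1, -8.13, -13.5 and -12.6, and was not run with D matched again. These contrasts kept their sign but lost the threshold, with adjusted p between 0.0521 and 0.0625 by the exact sign-flip test, or 0.104 for IGHD4 with 8 bases. Part of this is by construction, since the adjustment is shared with N additions, which no longer had the smallest p. With 8 bases the IGHD4 contrast no longer had it either, with the same sign in 5 of 6 libraries. With D matched again the adjustment ran over fewer contrasts, as the frame contrast was left out.

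N additions of IGHD4 minus IGHD1 were -0.21, -0.20, -0.19, 0.12, -0.19 and -0.17 in that order, -0.16 with V identity of 1 and 0.17 with medians. With medians the CDR3 contrasts lost the threshold, at 0.833 for IGHD1 (5 of 6 libraries, exact sign-flip test, adjusted p = 0.104) and -1.17 for IGHD4 (6 of 6 libraries, adjusted p = 0.0625). The V family contrast was -0.18 with calls of a single gene. The contrast of missing calls between switched and unswitched cells was 0.841 with 8 bases and 4.76 with D matched again. Leaving out 1 library at a time gave -1.36 to 1.34, the highest without 5xFAD iLN, and the other 9 contrasts kept their sign, although the V family contrast was 0.598 without WT iLN. For these reversals the cause was not tested. With 8 bases, the genotype difference of cells without a call in dCLN was -2.75 points, and IGHD2-2 in sCLN was 1.28 points with intervals apart. All 30 family shares stayed within their intervals with 3 UMIs, with each clone once and with V identity of 1, and all 30 moved with 8 bases, where IGHD3 was 2.56% to 3.61% and IGHD4 4.32% to 5.40%. With single-gene calls 25 of 30 moved, with D matched again 23 of 30, with single-family calls 5 of 30, and among cells with a D call 14 of 24. Switched contrasts with V identity of 1 and IGHD2-2 with single-gene calls or D matched again were not run. No paired analysis was possible because each group held 1 library, so replicate numbers pair nothing, and the tests already pair values by node or by library.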
